A study of Homo sapiens with 16 samples.

Results

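Ephrins and their Eph receptors, semaphorins and their plexin receptors, and the cytoplasmic dihydropyrimidinase-like (DPYSL, or collapsin response mediator) proteins were taken from the expression table by gene symbol, as every EPHA, EPHB, EFNA, EFNB, PLXNA to PLXND or DPYSL gene with a number and every SEMA gene with a number and a letter. This gave 55 of the 26258 genes listed. RNA sequencing had been done on Huh7 and Hep3B, established human hepatocellular carcinoma cell lines, in 8 groups with 2 libraries each. Parental cells and cells labelled DMSO, the solvent of the drug, carried the label untreated. Huh7-IR and Hep3B-IR had been selected for resistance to Sorafenib, a multikinase inhibitor, in stepwise increasing concentrations and Huh7-CR and Hep3B-CR in a constantly high one, and the labels give 7 µM Sorafenib for all resistant groups. The sources do not say whether a resistant line was a clone or a pool, and the labels do not say whether the 2 libraries of a group came from separate cultures (the methods speak of biological triplicates), so that p-values measure the spread between these libraries.

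Ephrins are membrane-bound ligands of the Eph receptor tyrosine kinases, A-type ephrins through a lipid anchor and B-type ephrins through a transmembrane segment, and both partners can signal. Semaphorins act on plexins, the secreted class mostly together with neuropilins as co-receptors. Plexin signalling lowers adhesion and remodels the cytoskeleton through small GTPases, MICAL oxidoreductases and DPYSL proteins. These molecules were described as cues for growing axons and also act in vessels, epithelia and tumours.

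Values are given as counts per 1000000 reads assigned to genes (CPM), from 46613302 to 76860251 reads per library. Of the 55 members, 46 reached 1 CPM in at least 2 libraries and were tested. DPYSL4, EPHA10, EPHA4, EPHA8, EPHB1, EPHB3, PLXNA4 and SEMA4A stayed below 1 CPM in every library, the highest being EPHA10 with 0.857 CPM in Hep3B-CR replicate 2. SEMA5B passed 1 CPM in Huh7 DMSO replicate 2 alone, at 1.67 CPM. EPHA8 had 1 read in 1 library. Fold changes are differences of log2(CPM + 1) from a limma fit over all 15019 tested genes, which understates the change of genes near or below 1 CPM. A change is called at a Benjamini-Hochberg adjusted p below 0.05 and at least 0.58 on the log2 scale.

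**Figure D1:**
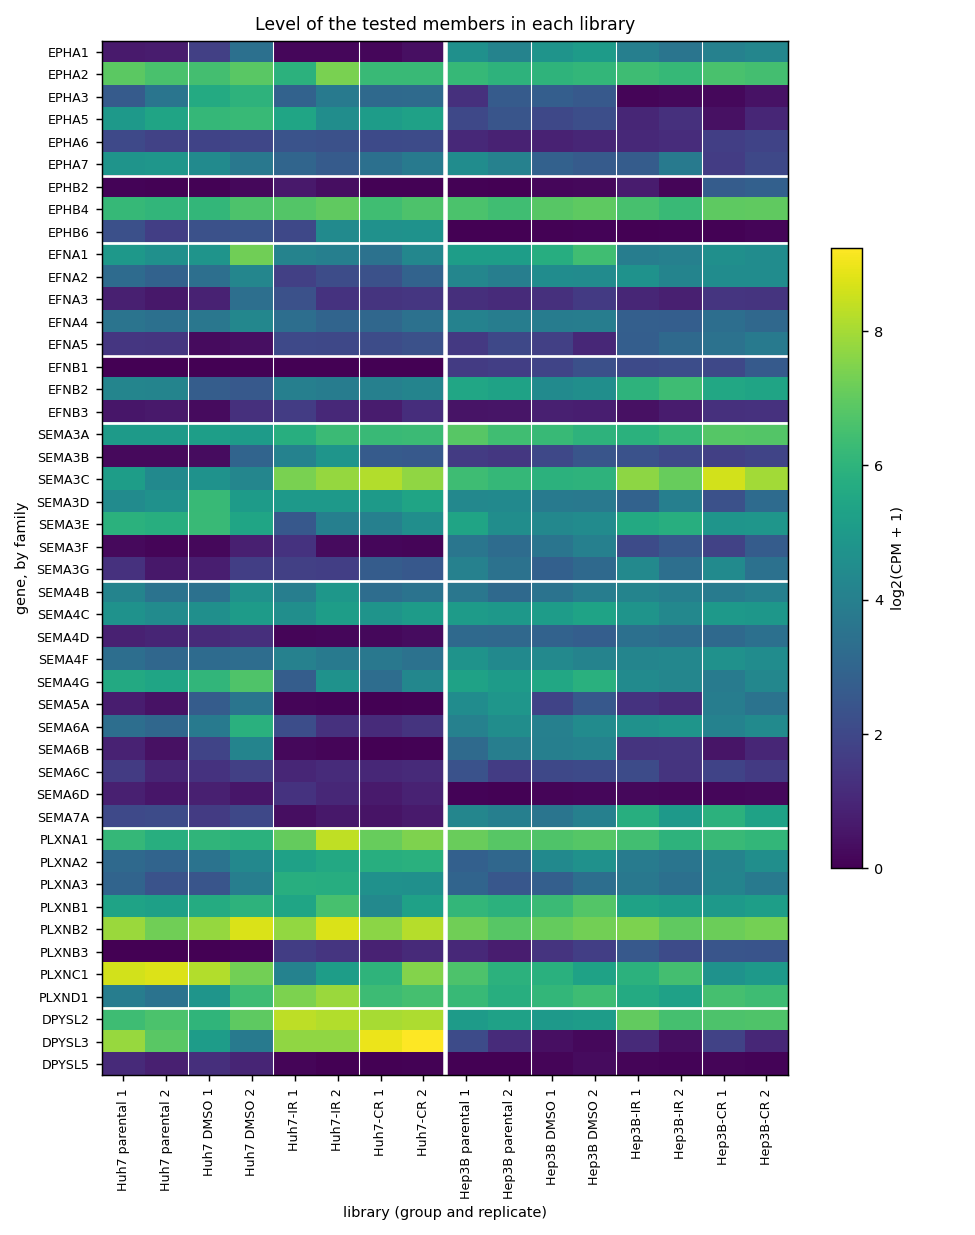
Level of the 46 tested members, as log2(CPM + 1), in each of the 16 libraries; rows are genes grouped by family and separated by white lines, and the thick vertical line parts Huh7 from Hep3B libraries. SEMA3C, DPYSL2 and PLXNA2 are brighter in the resistant than in the parental libraries of both lines. PLXNA2 in the Hep3B DMSO libraries, at 19.87 and 24.45 CPM, is brighter than in Hep3B-IR. EPHA1, EFNB1 and SEMA3F are dark in parental Huh7 and visible in parental Hep3B.

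Per length of exon, the make-up of the semaphorins and, in Huh7, of the plexins was different in resistant cells. SEMA3C, a secreted ligand that uses neuropilins with plexins, made up 14.9% and 10.4% of the summed semaphorin CPM per kilobase in the 2 parental Huh7 libraries. It made up 52.3% and 48.6% in Huh7-IR and 65.5% and 53.7% in Huh7-CR. In Hep3B its share was 20.7% and 21.2% in parental cells, 41.8% and 35.5% in IR and 56.3% and 47.8% in CR cells. The resistant libraries of either line thus lay above all parental and DMSO libraries of that line.

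PLXNC1, the receptor of SEMA7A, held the largest plexin share in parental Huh7 cells, at 48.3% and 59.3%. This share was 2.29% and 2.72% in Huh7-IR and 10.6% and 20.1% in Huh7-CR. In Huh7 DMSO cells it was 40.6% and 16.9%, the latter below Huh7-CR replicate 2. The share of PLXND1, the receptor of SEMA3E, was 2.05% and 1.69% in parental cells, 27.9% and 20.9% in Huh7-IR, 15.9% and 11.8% in Huh7-CR and 4.49% and 10.3% in DMSO cells. PLXNB2 was between 25.6% and 57.1% of the plexins in every library. In Hep3B the share of PLXND1 was 15.02% and 14.7% in parental cells, 12.2% and 11.2% in IR and 24.4% and 21.3% in CR cells. Shares within a family describe these libraries and were not tested.

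**Figure D2:**
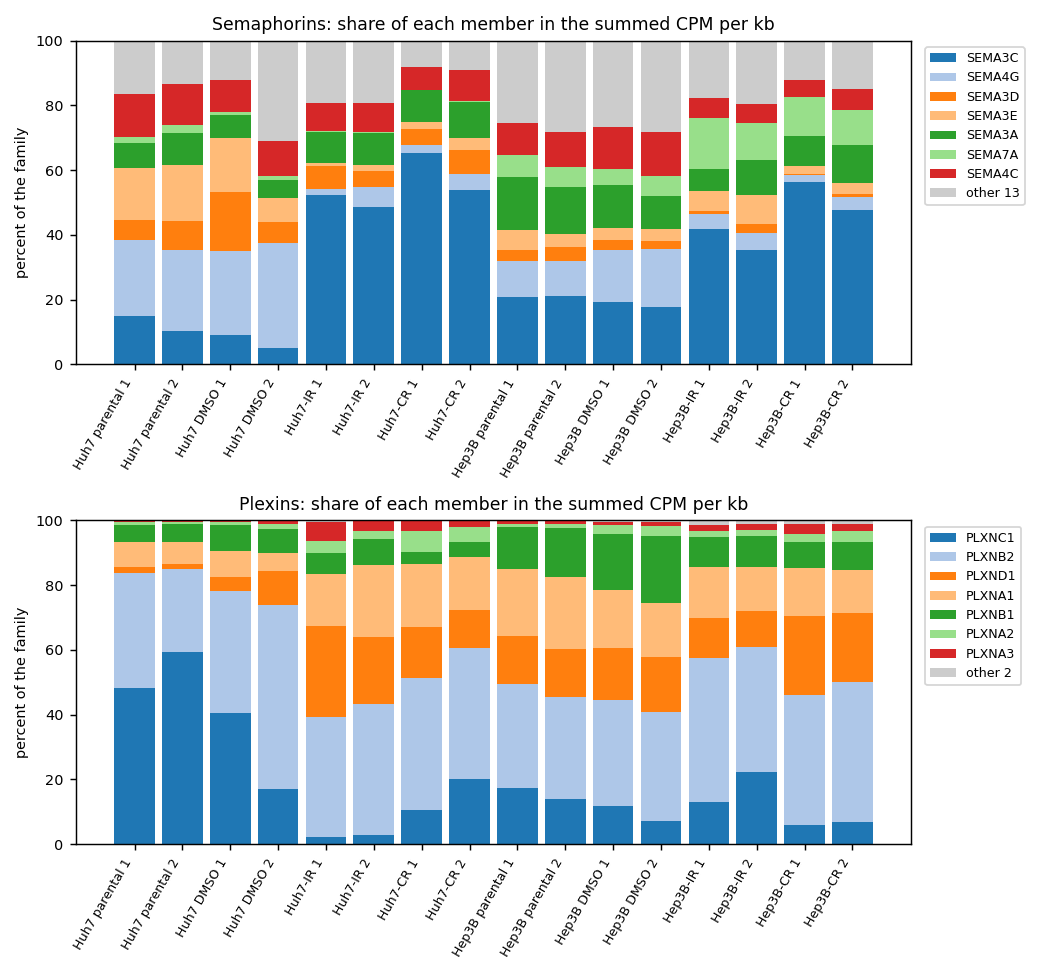
Share of each member, in percent, in the summed CPM per kilobase of the semaphorins (top) and plexins (bottom) in each of the 16 libraries; each bar is 1 library and grey pools the remaining members. The SEMA3C block is wider in all 8 resistant libraries than in the parental and DMSO libraries of the same line, and the PLXNC1 block, 48.3% and 59.3% in parental Huh7, is 2.29% and 2.72% in Huh7-IR.

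The number of members called was close to the rate over all genes in some comparisons and above it in others. Against parental cells, 21 of 46 members (45.7%) were called in Huh7-IR, 12 higher and 9 lower, beside 48.8% of all tested genes. Huh7-CR had 21 called members (45.7%), 13 higher and 8 lower, beside 34.5% of all genes. Hep3B-IR had 14 (30.4%), 7 in each direction, beside 27.1%. Hep3B-CR had 21 (45.7%), 11 higher and 10 lower, beside 32.2%. The median log2 change in Huh7-IR was 0.40 for the members and 0.19 for all genes. For Huh7-CR these medians were 0.04 and 0.07. In Hep3B they were 0.03 and 0.06 with IR and 0.09 and 0.11 with CR cells. With TMM scaling the median of all genes in Huh7-IR was 0.04 and the members split 9 higher and 9 lower. Of all genes 48.4% were then called, 52.8% of these higher, so that small rises in Huh7-IR depend on the scaling. Without Hep3B parental replicate 2 the count was 7 in Hep3B-IR (18.1% of all genes were then called) and 13 in Hep3B-CR (22.3% of all genes), and without Hep3B-IR replicate 1 it was 8 in Hep3B-IR (18.8% of all genes). In both Huh7-CR and Hep3B-CR the count was below 21 whichever library of the comparison was left out, and the share of all genes called was also lower. The excess over all genes in these groups thus leans on having all libraries. The IR and CR comparisons of a line share their parental libraries.

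With the DMSO cells of the line as reference, more members were called lower than with parental cells in Huh7-IR, Huh7-CR and Hep3B-IR, but not in Hep3B-CR. In Huh7-IR 29 members were called, 13 higher and 16 lower, beside 47.0% of all genes (28.3% higher and 18.7% lower), and 19 of the 21 calls against parental cells were among them in the same direction. Huh7-CR had 27, 12 higher and 15 lower, beside 34.7% (18.8% higher and 15.9% lower), with 17 of its 21 calls kept. Hep3B-IR had 19, 7 higher and 12 lower, beside 32.1% (17.3% higher and 14.8% lower), with 12 of 14 kept. Hep3B-CR had 19, 10 higher and 9 lower, beside 32.9% (19.5% higher and 13.4% lower), with 14 of 21 kept. EFNA1, a ligand of EPHA2, was called lower in all 4 against DMSO, though in none against parental cells. The 2 references share the resistant libraries.

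EFNA1 had 29.2 and 24.2 CPM in parental Huh7, 26.5 and 151 CPM in the DMSO cells, 16.6 and 15.1 CPM in Huh7-IR and 10.1 and 18.2 CPM in Huh7-CR. In Hep3B it had 34.4 and 34.2 CPM in parental, 52.8 and 83.1 CPM in DMSO, at most 15.1 CPM in Hep3B-IR and 23.0 and 21.7 CPM in Hep3B-CR. The resistant libraries lay below all parental and DMSO libraries of their line. Against DMSO the values were -1.94 (limma adjusted p = 0.0106) in Huh7-IR, -2.14 (adjusted p = 0.00856) in Huh7-CR, -2.11 (adjusted p = 0.0101) in Hep3B-IR and -1.53 (adjusted p = 0.0458) in Hep3B-CR. Leaving out Huh7 DMSO replicate 2, a choice made after seeing the data, gave -0.71 (adjusted p = 0.0717) in Huh7-IR and -0.91 (adjusted p = 0.0379) in Huh7-CR.

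EPHA1, a receptor of A-type ephrins, was also called lower against DMSO, at -2.41 (limma adjusted p = 0.000277) in Huh7-IR, -2.31 (adjusted p = 0.000588) in Huh7-CR and -1.15 (adjusted p = 0.0366) in Hep3B-IR. Without Huh7 DMSO replicate 2 its Huh7 values were -1.59 (adjusted p = 0.000375) and -1.48 (adjusted p = 0.00103). The remaining calls made against DMSO but not against parental cells were EFNA4, EPHA3, EPHA5, SEMA5A and SEMA6B lower and EFNB2 higher in both resistant Huh7 groups. DPYSL3 and EFNA5 were higher in Huh7-IR, and EFNA2 and PLXNB1 lower in Huh7-CR. Without Huh7 DMSO replicate 2, EFNA4 was at -0.51 in Huh7-IR and -0.39 in Huh7-CR, under the size threshold. In Huh7-CR the calls of EFNA2 (-0.74), EPHA5 (-0.96) and PLXNB1 (-0.87) were then also lost. EPHA3, SEMA5A and SEMA6B stayed at -1.74 or lower and EFNB2 at 1.20 or higher in both groups. DPYSL3 was at 2.59 and EFNA5 at 1.72 in Huh7-IR. In Hep3B, SEMA4G was lower in both groups, PLXNB1 and SEMA4C lower and SEMA3E higher in IR, and EFNB2 and SEMA3A higher in CR cells. In that reference SEMA4C in Hep3B-IR was at -0.70 (adjusted p = 0.0309).

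DPYSL2, SEMA3C, PLXNA2 and PLXNB3 were higher and EPHA7 was lower than in parental cells in all 4 comparisons. The share of all genes called the same way in all 4 was not counted, so the pattern is not shown to be particular to these families. DPYSL2, which binds tubulin and relays semaphorin signals to microtubules, had 82.2 and 98.01 CPM in parental Huh7, 319 and 289 CPM in Huh7-IR and 261 and 272 CPM in Huh7-CR. Hep3B libraries had 32.4 and 38.0 CPM in parental cells, 129 and 89.9 CPM in Hep3B-IR and 101 and 104 CPM in Hep3B-CR. Resistant libraries did not overlap with parental or DMSO libraries in either line. The DMSO libraries were at 64.9 and 124 CPM in Huh7 and 30.6 and 33.9 CPM in Hep3B. The log2 change in Huh7 was 1.75 ± 0.25 (SE; limma adjusted p = 8.70e-05) for IR and 1.56 ± 0.25 (adjusted p = 0.000355) for CR cells. For the Hep3B cells it was 1.59 ± 0.25 (adjusted p = 0.000454) with IR and 1.52 ± 0.25 (adjusted p = 0.000521) with CR. It was 1.56 to 1.75 with the DMSO libraries as reference and no alternative setting or left-out library ended these calls.

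SEMA3C (chromosome 7, 80371854 to 80551675, minus strand, GRCh37) had 34.0 and 19.7 CPM in parental Huh7, 165 and 218 CPM in Huh7-IR and 285 and 210 CPM in Huh7-CR. In Hep3B there were 81.1 and 70.2 CPM in parental cells, 205 and 135 CPM in Hep3B-IR and 390 and 250 CPM in Hep3B-CR. Every resistant library exceeded every parental and DMSO library of its line. The log2 change was 2.82 ± 0.30 (limma adjusted p = 1.06e-05) in Huh7-IR and 3.19 ± 0.30 (adjusted p = 7.23e-06) in Huh7-CR. It was 1.13 ± 0.30 (adjusted p = 0.0126) in Hep3B-IR and 2.04 ± 0.30 (adjusted p = 0.000279) in Hep3B-CR. The mean rise was larger in Huh7 than in Hep3B by 1.42 ± 0.37 (adjusted p = 0.0114). The Hep3B-IR call was lost without Hep3B parental replicate 2 (1.03, adjusted p = 0.0883) or Hep3B-IR replicate 1 (0.83, adjusted p = 0.129), and the difference between the lines without Hep3B parental replicate 1 (1.32, adjusted p = 0.0553) or Huh7 parental replicate 2 (1.04, adjusted p = 0.0744).

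PLXNA2 (chromosome 1, 208195587 to 208417729, minus strand), a plexin that serves secreted semaphorins with neuropilins and SEMA6A directly, had 7.83 and 6.87 CPM in parental Huh7, 37.76 and 46.7 CPM in Huh7-IR and 54.2 and 57.7 CPM in Huh7-CR. Its log2 change was 2.37 ± 0.25 (limma adjusted p = 1.10e-05) in Huh7-IR and 2.77 ± 0.25 (adjusted p = 5.71e-06) in Huh7-CR. In Hep3B it had 6.14 and 7.54 CPM in parental cells, 13.3 and 11.0 CPM in Hep3B-IR and 16.5 and 22.5 CPM in Hep3B-CR, but also 19.9 and 24.4 CPM in the DMSO cells. The rises over parental Hep3B, 0.75 ± 0.25 (adjusted p = 0.0391) and 1.38 ± 0.25 (adjusted p = 0.00121), became -0.81 (adjusted p = 0.0238) and -0.19 (adjusted p = 0.604) against DMSO. The Hep3B-IR call was also lost with TMM or quantile scaling, a pseudocount of 4 CPM or no filter (adjusted p from 0.0538 to 0.0939) and without any 1 of the 4 Hep3B parental and Hep3B-IR libraries, at adjusted p from 0.0705 to 0.207.

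PLXNB3 (chromosome X, 153029651 to 153044801, plus strand), the receptor of SEMA5A, was a low gene: 1 read in parental Huh7 replicate 1 and none in replicate 2, against 2.17 and 1.70 CPM in Huh7-IR and 0.866 and 1.13 CPM in Huh7-CR. The ratio of pooled reads to parental cells was 282 in Huh7-IR and 144 in Huh7-CR, with 95% counting intervals of 49.99 to 11170 and 25.5 to 5739 that cover counting error only. Hep3B libraries had 1.10 and 0.661 CPM in parental cells, 5.02 and 3.31 CPM in Hep3B-IR and 4.46 and 4.23 CPM in Hep3B-CR. The resistant libraries lay above the DMSO libraries, at 1.63 and 2.26 CPM, and the parental ones below them. On the log2(CPM + 1) scale the change in Huh7 was 1.54 ± 0.19 (limma adjusted p = 3.80e-05) for IR and 0.98 ± 0.19 (adjusted p = 0.00168) for CR. The Hep3B values were 1.45 ± 0.19 (adjusted p = 0.000173) for IR and 1.51 ± 0.19 (adjusted p = 0.000106) for CR. An antisense gene, PLXNB3-AS1, overlaps it, and the sources do not say whether reads were counted by strand. The GENCODE annotation also places named antisense genes over SEMA3B, SEMA3F, SEMA5A, SEMA6A, EPHA1, EPHA2 and EPHA5, and their values carry the same limit.

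EPHA7 (chromosome 6, 93949738 to 94129405, minus strand), a receptor of A-type ephrins, had 26.4 and 27.6 CPM in parental Huh7, 7.16 and 5.26 CPM in Huh7-IR and 9.74 and 12.7 CPM in Huh7-CR. In Hep3B there were 21.6 and 15.8 CPM in parental cells, 5.50 and 12.7 CPM in Hep3B-IR and 2.15 and 2.99 CPM in Hep3B-CR. Its DMSO libraries were also below parental ones, at 20.5 and 11.9 CPM in Huh7 and 6.30 and 5.35 CPM in Hep3B. On the log2 scale EPHA7 fell by 1.97 (SE 0.34, limma adjusted p = 0.000381) in Huh7-IR and 1.21 (SE 0.34, adjusted p = 0.0132) in Huh7-CR. It fell by 1.05 (SE 0.34, adjusted p = 0.0328) in Hep3B-IR and 2.46 (SE 0.34, adjusted p = 0.000178) in Hep3B-CR. Against DMSO the value was -0.46 (adjusted p = 0.304) in Huh7-CR and 0.47 (adjusted p = 0.303) in Hep3B-IR, while Huh7-IR (-1.22, adjusted p = 0.00887) and Hep3B-CR (-0.94, adjusted p = 0.0434) kept the call. The Huh7-CR call was lost without either parental library or Huh7-CR replicate 1 (-1.24 to -1.03, adjusted p from 0.0510 to 0.0985). The Hep3B-IR call was lost without either parental library (-0.83, adjusted p = 0.186, and -1.26, adjusted p = 0.0606) or Hep3B-IR replicate 1 (-0.51, adjusted p = 0.339).

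**Figure D3:**
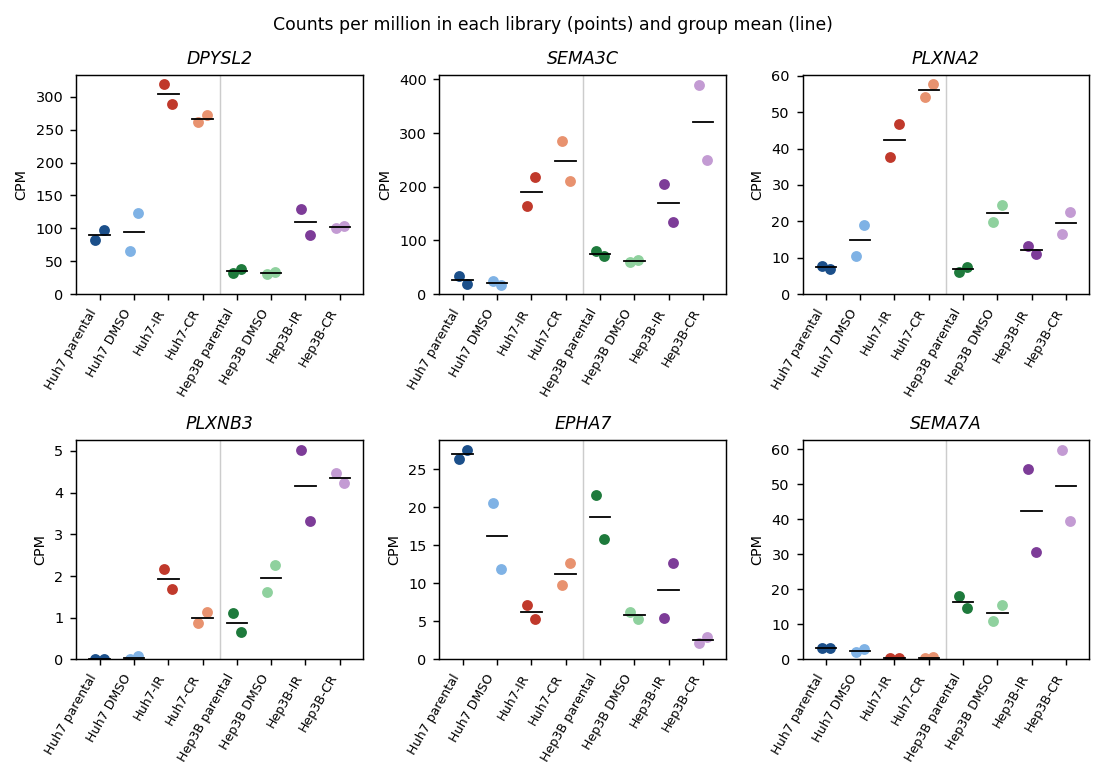
CPM of DPYSL2, SEMA3C, PLXNA2, PLXNB3, EPHA7 and SEMA7A by group, on linear axes from 0; each point is 1 library and the line is the mean of the 2. The resistant libraries lie above the parental ones of their line for DPYSL2, SEMA3C, PLXNA2 and PLXNB3 and below them for EPHA7, and SEMA7A lies below parental in Huh7 and above it in Hep3B.

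SEMA7A (chromosome 15, 74701630 to 74726299, minus strand), a lipid-anchored semaphorin that binds PLXNC1 and integrins, was the member called in opposite directions in the 2 lines. It had 3.16 and 3.28 CPM in parental Huh7, 0.265 and 0.515 CPM in Huh7-IR and 0.402 and 0.576 CPM in Huh7-CR. In Hep3B it had 18.1 and 14.7 CPM in parental cells, 54.3 and 30.5 CPM in Hep3B-IR and 59.7 and 39.5 CPM in Hep3B-CR. It thus started higher in Hep3B and the lines moved apart, with no overlap between resistant and parental libraries in either. The log2 change in Huh7 was -1.61 ± 0.29 (limma adjusted p = 0.000539) for IR and -1.505 ± 0.29 (adjusted p = 0.00145) for CR. The Hep3B values were 1.27 ± 0.29 (adjusted p = 0.00559) for IR and 1.52 ± 0.29 (adjusted p = 0.00159) for CR. The difference between the lines was -2.95 ± 0.36 (adjusted p = 8.69e-05). The signs were the same against DMSO. The Hep3B-IR call was lost without Hep3B parental replicate 2 (1.13, adjusted p = 0.0546) or Hep3B-IR replicate 1 (0.86, adjusted p = 0.0761).

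The change in resistant cells, averaged over IR and CR, differed between the lines for 25 of 46 members (54.3%), 16 with the higher value in Huh7 and 9 with the higher value in Hep3B, beside 29.4% of all genes. The 16 include SEMA5A and SEMA6B, whose sign turned on recovered reads, and EPHA3 and SEMA5A, whose sign turned against DMSO. Leaving out 1 library gave 14 to 25 members, with 14 to 16 when it was any 1 of the 4 parental libraries (15 and 16 without Hep3B parental replicates 1 and 2, 16 and 14 without Huh7 parental replicates 1 and 2), beside 21.0% to 23.5% of all genes. With DMSO cells as reference it was 18 members, 8 and 10 by direction, beside 31.8% of all genes (16.4% and 15.5%). The largest differences toward Huh7 were in PLXND1 and SEMA3B, and toward Hep3B in SEMA7A, SEMA3E and PLXNC1.

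**Figure D4:**
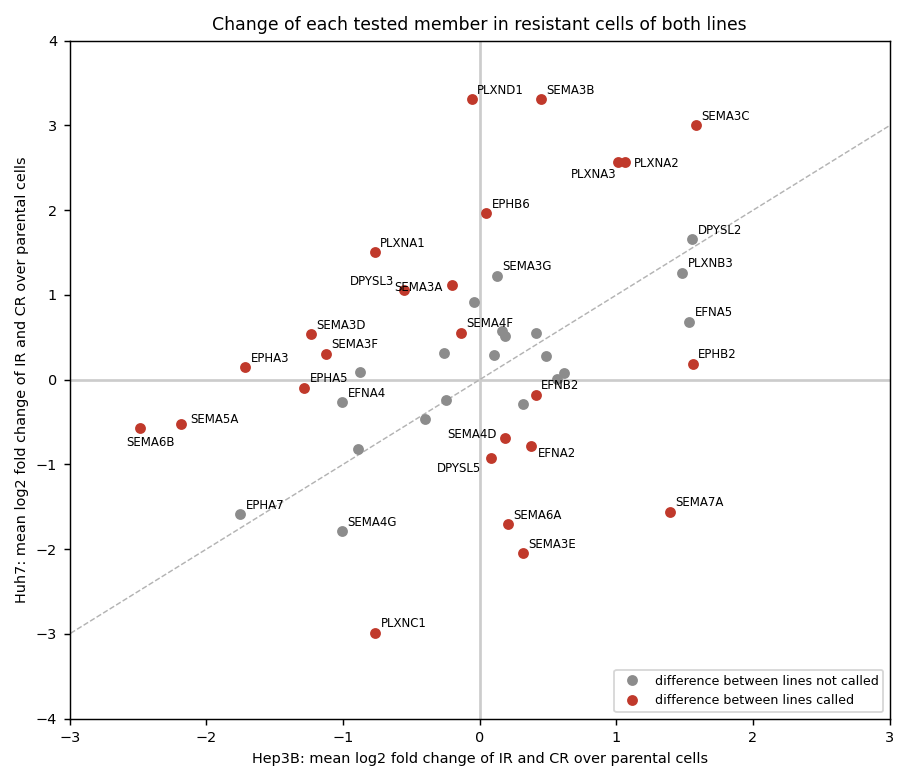
Mean log2 fold change of IR and CR over parental cells in Hep3B (x axis) and Huh7 (y axis) for the 46 tested members; red points are the 25 members whose change differed between the lines, grey points the others, and the dashed line marks equal change. SEMA3C, PLXNA2, PLXNA3, DPYSL2 and PLXNB3 lie in the upper right, EPHA7 in the lower left, and SEMA7A alone is far into the lower right.

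Among the receptors of Huh7, PLXND1 (chromosome 3, 129274057 to 129325519, minus strand) had 14.2 and 10.4 CPM in parental cells, 169 and 227 CPM in Huh7-IR and 80.7 and 91.1 CPM in Huh7-CR. Its log2 change was 3.90 ± 0.37 (limma adjusted p = 4.74e-06) in Huh7-IR and 2.72 ± 0.37 (adjusted p = 0.000129) in Huh7-CR. Hep3B libraries had 74.0 and 54.6 CPM in parental cells, 49.0 and 38.0 CPM in Hep3B-IR and 91.3 and 81.5 CPM in Hep3B-CR. These changes of -0.55 and 0.43 were not called, and the lines differed by 3.37 ± 0.46 (adjusted p = 0.000210). The Huh7 DMSO libraries, at 27.2 and 80.8 CPM, were themselves above parental ones, and against them Huh7-CR was at 0.85 (adjusted p = 0.0859) and Huh7-IR at 2.04 (adjusted p = 0.000629). Leaving out Huh7 DMSO replicate 2, a choice made after seeing the data, gave 1.62 in Huh7-CR and 2.8 in Huh7-IR.

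SEMA3E, the ligand of PLXND1, went the other way in Huh7, with 58.5 and 54.0 CPM in parental cells, 4.91 and 15.02 CPM in Huh7-IR and 15.1 and 22.9 CPM in Huh7-CR. It fell by 2.56 (SE 0.41, limma adjusted p = 0.000245) and 1.54 (SE 0.41, adjusted p = 0.0103) on the log2 scale. In Hep3B there were 40.7 and 22.2 CPM in parental cells, 48.5 and 54.9 CPM in Hep3B-IR and 27.5 and 27.7 CPM in Hep3B-CR, and the lines differed by -2.37 ± 0.51 (adjusted p = 0.00408). The Huh7-CR call was lost without Huh7 parental replicate 1 (-1.49, adjusted p = 0.0543) or Huh7-CR replicate 1 (-1.26, adjusted p = 0.0927).

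PLXNC1 (chromosome 12, 94542353 to 94701451, plus strand) had 391.5 and 429 CPM in parental Huh7, 16.2 and 34.6 CPM in Huh7-IR and 63.0 and 182 CPM in Huh7-CR. With SEMA7A, its ligand, it was lower in both resistant Huh7 groups, by 4.05 (SE 0.48, limma adjusted p = 2.28e-05) and 1.92 (SE 0.48, adjusted p = 0.00685). In Hep3B it had 99.5 and 60.4 CPM in parental cells, 60.9 and 88.4 CPM in Hep3B-IR and 25.4 and 30.4 CPM in Hep3B-CR. Changes were -0.08 (not called) and -1.45 ± 0.48 (adjusted p = 0.0307), and the lines differed by -2.23 ± 0.59 (adjusted p = 0.0126). Against DMSO both CR calls were lost, at -0.97 (adjusted p = 0.127) in Huh7 and -0.76 (adjusted p = 0.234) in Hep3B. Leaving out Huh7-CR replicate 1 gave -1.16 (adjusted p = 0.0924) in Huh7-CR. In Hep3B-CR the call was lost without Hep3B parental replicate 1 (-1.09, adjusted p = 0.189) or either Hep3B-CR library (-1.32, adjusted p = 0.136, and -1.57, adjusted p = 0.0814), and the difference between the lines without parental replicate 2 of Hep3B (-1.87, adjusted p = 0.0695) or of Huh7 (-2.16, adjusted p = 0.0511).

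The A-type plexins PLXNA1 and PLXNA3, co-receptors of neuropilins for secreted semaphorins, rose with PLXNA2 in Huh7. PLXNA3 had 6.81 and 4.10 CPM in parental Huh7, 54.9 and 53.3 CPM in Huh7-IR and 24.8 and 23.9 CPM in Huh7-CR. These were changes of 3.13 ± 0.40 (limma adjusted p = 4.39e-05) and 2.01 ± 0.40 (adjusted p = 0.00187). In Hep3B its values were 6.93 and 4.74 CPM in parental cells, 12.1 and 9.62 CPM in Hep3B-IR (0.80, adjusted p = 0.153) and 17.1 and 12.7 CPM in Hep3B-CR (1.22, adjusted p = 0.0307). The Hep3B-CR call was lost without Hep3B parental replicate 2 (0.99, adjusted p = 0.185), without Hep3B parental replicate 1 (1.45, adjusted p = 0.0515) and without either Hep3B-CR library (1.02, adjusted p = 0.165, and 1.42, adjusted p = 0.0610). It was also lost against DMSO (0.91, adjusted p = 0.0910) and without the filter (adjusted p = 0.0665). The PLXNA3 difference between the lines, 1.56 (adjusted p = 0.0306), was 1.33 (adjusted p = 0.0554) against DMSO and lost its call in 8 of 22 alternatives. PLXNA1 had 70.3 and 54.7 CPM in parental Huh7, 132 and 324 CPM in Huh7-IR and 134 and 174 CPM in Huh7-CR. The Hep3B values were 138 and 112 CPM in parental Hep3B, 85.9 and 62.2 CPM in Hep3B-IR and 75.4 and 68.6 CPM in Hep3B-CR. It rose in Huh7 by 1.72 ± 0.32 (adjusted p = 0.000655) and 1.29 ± 0.32 (adjusted p = 0.00681). It was at -0.76 and -0.78 in Hep3B without a call and differed between the lines by 2.27 ± 0.39 (adjusted p = 0.00104). The Huh7-CR call of PLXNA1 was lost without Huh7 parental replicate 2 (1.11, adjusted p = 0.0611) or Huh7-CR replicate 2 (1.10, adjusted p = 0.0574).

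Of the secreted semaphorins, SEMA3B (chromosome 3, 50304990 to 50314977, plus strand) had 0.175 and 0.174 CPM in parental Huh7, 16.3 and 27.4 CPM in Huh7-IR and 5.35 and 4.92 CPM in Huh7-CR. It rose by 4.24 ± 0.59 (limma adjusted p = 7.71e-05) and 2.38 ± 0.59 (adjusted p = 0.00648). It was between 1.86 and 4.40 CPM in every Hep3B library, and differed between the lines by 2.87 ± 0.72 (adjusted p = 0.00990). Huh7 DMSO replicate 2, at 6.85 CPM, lay above both Huh7-CR libraries while replicate 1 had 0.235 CPM, and against DMSO the Huh7-CR change was 0.98 (adjusted p = 0.205). Against Huh7 DMSO replicate 1 alone, a choice made after seeing the data, that change was 2.31. SEMA3A, which collapses growth cones through neuropilin-1 and A-type plexins, rose in Huh7-IR (0.996 ± 0.18, adjusted p = 0.000576) and Huh7-CR (1.23 ± 0.18, adjusted p = 0.000229). SEMA3G rose in Huh7-CR by 1.66 ± 0.42 (adjusted p = 0.00724), a call lost without Huh7 parental replicate 2 (1.29, adjusted p = 0.0776).

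Among the transmembrane semaphorins of Huh7, SEMA6A, SEMA4G and SEMA4D were lower in both resistant groups and SEMA4F was higher in Huh7-IR. SEMA6A, a ligand of A-type plexins, had 9.11 and 7.51 CPM in parental cells, 3.60 and 1.48 CPM in Huh7-IR and 1.18 and 1.61 CPM in Huh7-CR. It fell by 1.46 (SE 0.50, limma adjusted p = 0.0259) and 1.96 (SE 0.50, adjusted p = 0.00815). It stayed between 15.2 and 26.9 CPM in every Hep3B library, and differed between the lines by -1.92 ± 0.62 (adjusted p = 0.0327). SEMA4G had 48.2 and 42.7 CPM in parental Huh7, 5.59 and 25.3 CPM in Huh7-IR and 8.78 and 18.2 CPM in Huh7-CR. It fell by 1.82 (SE 0.50, adjusted p = 0.00788) and 1.76 (SE 0.50, adjusted p = 0.0139). SEMA4D, the ligand of PLXNB1, was below 1 CPM in parental cells and fell by 0.75 and 0.63, the latter lost without Huh7 parental replicate 2 or Huh7-CR replicate 1. SEMA4F rose in Huh7-IR by 0.72 ± 0.18 (adjusted p = 0.00524), a call that was lost with TMM scaling (0.54) and without Huh7 parental replicate 2 (0.60, adjusted p = 0.0512) or Huh7-IR replicate 1 (0.58).

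Several of these calls rest on single libraries. Without Huh7-IR replicate 1, SEMA4G in Huh7-IR was at -0.82 (adjusted p = 0.0818). In Huh7-CR it lost the call without either parental library or Huh7-CR replicate 1 (-1.27, adjusted p = 0.137). SEMA6A in Huh7-IR lost it without either parental library (-1.33, adjusted p = 0.107, and -1.58, adjusted p = 0.0670) or Huh7-IR replicate 2 (-1.01, adjusted p = 0.173). The Huh7-CR call was lost without Huh7 parental replicate 1 (-1.84, adjusted p = 0.0504) or Huh7-CR replicate 1 (-1.83, adjusted p = 0.0568). The SEMA6A difference between the lines lost its call when any 1 of 9 libraries was left out, at adjusted p up to 0.131 without Hep3B parental replicate 1 (-1.68).

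In Hep3B, SEMA5A and SEMA6B fell in both resistant groups. SEMA5A, a transmembrane semaphorin and ligand of PLXNB3, had 21.3 and 27.8 CPM in parental cells, 1.57 and 1.21 CPM in Hep3B-IR and 13.97 and 10.4 CPM in Hep3B-CR. It fell by 3.41 (SE 0.30, limma adjusted p = 7.22e-06) and 0.96 (SE 0.30, adjusted p = 0.0242). Its Hep3B DMSO libraries, at 2.65 and 4.87 CPM, were below the CR ones, so that Hep3B-CR was higher by 1.49 (adjusted p = 0.00194) against DMSO. The Hep3B-CR call against parental cells was lost without Hep3B parental replicate 2 (-0.77, adjusted p = 0.159) or Hep3B-CR replicate 2 (-0.76, adjusted p = 0.155). SEMA6B, a further ligand of A-type plexins, had 8.10 and 14.4 CPM in parental Hep3B, 1.63 and 1.68 CPM in Hep3B-IR and 0.450 and 0.971 CPM in Hep3B-CR. It fell by 2.16 (SE 0.52, adjusted p = 0.00764) and 2.81 (SE 0.52, adjusted p = 0.00130), the former not called without Hep3B parental replicate 2 (-1.78, adjusted p = 0.0792).

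Both genes were below 1 CPM in parental Huh7 and lower still in its resistant libraries, from 0 to 0.149 CPM. Their differences between the lines, 1.66 ± 0.37 (limma adjusted p = 0.00498) for SEMA5A and 1.91 ± 0.64 (adjusted p = 0.0388) for SEMA6B, changed sign when recovered reads were tested with edgeR (-1.03 and -0.42, neither called). No order of the lines can be read for them. SEMA3F fell in Hep3B-IR (1.07, SE 0.37, adjusted p = 0.0442) and Hep3B-CR (1.18, SE 0.37, adjusted p = 0.0252), and neither call held with edgeR (adjusted p = 0.204 and 0.147) or without Hep3B parental replicate 1 (-0.89 and -0.998), Hep3B parental replicate 2 (-1.25 and -1.36) or the resistant replicate 1 (-0.84 and -0.74). SEMA3D fell in Hep3B-CR by 1.58 (SE 0.41, adjusted p = 0.00901), a call lost without Hep3B-CR replicate 1 (-1.11, adjusted p = 0.0998) or Hep3B parental replicate 2 (-1.55, adjusted p = 0.0535).

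Among Eph receptors, EPHA2 and EPHB4 had the highest CPM per kilobase in the parental cells of both lines. EPHA2 was not called in any of the 4 comparisons and ranged from 61.1 to 167 CPM over all libraries, the extremes being the 2 Huh7-IR libraries. EPHB4, the receptor of EFNB2, rose in Huh7-IR from 71.9 and 65.9 CPM to 108 and 124 CPM (0.74 ± 0.18, limma adjusted p = 0.00323), and this fell under the size threshold with TMM scaling (0.55), edgeR (0.56), DESeq2 (0.54) and the DMSO reference (0.48). In Hep3B the A-type receptors EPHA3, EPHA5 and EPHA7 were lower in both resistant groups. EPHA3 had 1.43 and 5.22 CPM in parental cells, 0.0803 and 0.142 CPM in Hep3B-IR and 0.159 and 0.362 CPM in Hep3B-CR. EPHA3 fell by 1.81 (SE 0.41, adjusted p = 0.00550) and 1.63 (SE 0.41, adjusted p = 0.00837). Both EPHA3 calls were lost without Hep3B parental replicate 2 (-1.13, adjusted p = 0.0721, and -0.95, adjusted p = 0.108), and the CR call also without Hep3B-CR replicate 1 (-1.51, adjusted p = 0.0566).

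EPHA5 fell by 1.07 (SE 0.30, limma adjusted p = 0.0165) in Hep3B-IR and 1.499 (SE 0.30, adjusted p = 0.00203) in Hep3B-CR, the former lost without Hep3B parental replicate 2 (-0.85, adjusted p = 0.140) or Hep3B-IR replicate 1 (-0.93, adjusted p = 0.114). EPHB2 was near 0 in most libraries and was raised in Hep3B-CR, with 0.0269 and 0.0141 CPM in parental Hep3B, 0.642 and 0.0853 CPM in Hep3B-IR and 5.39 and 6.17 CPM in Hep3B-CR. Its change in Hep3B-CR was 2.73 ± 0.18 (adjusted p = 7.52e-07), and no Huh7 library exceeded 0.531 CPM. EPHB6, a receptor without kinase activity, was at most 0.0952 CPM in Hep3B and had 3.75 and 2.32 CPM in parental Huh7, 2.97 and 20.7 CPM in Huh7-IR and 24.3 and 25.2 CPM in Huh7-CR. It rose by 2.70 ± 0.53 (adjusted p = 0.00152) in Huh7-CR and was at 1.22 (adjusted p = 0.0634) in Huh7-IR. Its difference between the lines (1.91 ± 0.64, adjusted p = 0.0393) was 0.39 with edgeR (adjusted p = 0.989) and was not called without any 1 of the 4 parental libraries, 4 resistant Hep3B libraries or 2 Huh7-CR libraries (1.65 to 2.17).

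Of the ephrins, EFNA5, a lipid-anchored ligand of the EphA receptors, rose in Hep3B-IR from 1.87 and 3.04 CPM to 5.81 and 8.03 CPM and in Hep3B-CR to 10.1 and 12.8 CPM. These were changes of 1.20 ± 0.25 (limma adjusted p = 0.00287) and 1.86 ± 0.25 (adjusted p = 0.000135) that no alternative setting or left-out library ended. In Huh7 it went from 1.73 and 1.67 CPM to 3.07 and 2.98 CPM in Huh7-IR (0.57, adjusted p = 0.0644) and 3.48 and 3.91 CPM in Huh7-CR (0.80 ± 0.25, adjusted p = 0.0218), the latter lost without any 1 of the 4 libraries compared (adjusted p from 0.0659 to 0.104). EFNA4 fell in Hep3B-IR (1.24, SE 0.23, adjusted p = 0.00132) and Hep3B-CR (0.77, SE 0.23, adjusted p = 0.0170), the latter lost without Hep3B parental replicate 1 (-0.68) or Hep3B-CR replicate 2 (-0.67). EFNB2, the ligand of EPHB4, rose in Hep3B-IR (0.76 ± 0.16, adjusted p = 0.00339), below the size threshold without Hep3B-IR replicate 2 (0.56). EFNA1 was not called against parental cells in any resistant group, with changes from -1.18 to -0.60, and was called in all 4 against DMSO.

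Further called members were DPYSL5, EFNA2 and PLXNB1. DPYSL5 had 1.16 and 0.777 CPM in parental Huh7 and at most 0.0829 CPM in its resistant libraries, a fall of 0.90 (SE 0.14, limma adjusted p = 0.000165) in Huh7-IR and 0.94 (SE 0.14, adjusted p = 0.000210) in Huh7-CR. EFNA2 had 8.41 and 6.496 CPM in parental Huh7 and 2.34 and 3.45 CPM in Huh7-IR, a fall of 1.123 (SE 0.31, adjusted p = 0.00745) that was lost without Huh7 parental replicate 1 (-0.96) or Huh7-IR replicate 1 (-0.92). PLXNB1, the receptor of SEMA4D, had 68.3 and 61.0 CPM in parental Hep3B and 31.1 and 35.3 CPM in Hep3B-CR, a fall of 0.94 (SE 0.33, adjusted p = 0.0405) that was lost without any 1 of the 4 libraries (-1.03 to -0.85).

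EPHA6 had 1.10 and 0.830 CPM in parental Hep3B and 2.29 and 2.67 CPM in Hep3B-CR, a rise of 0.82 ± 0.15 (limma adjusted p = 0.00127). The B-type ephrin EFNB1 rose in Hep3B-CR by 0.65 ± 0.19 (adjusted p = 0.0184) and EFNB3 in Huh7-IR by 0.74 ± 0.29 (adjusted p = 0.0422) and in Hep3B-CR by 0.78 ± 0.29 (adjusted p = 0.0480). All 3 ephrin calls were lost with TMM scaling and with edgeR and DESeq2 on the recovered reads. EFNB1 was not called without either Hep3B parental library (0.59 and 0.72) or Hep3B-CR replicate 2 (0.33). EFNB3 was not called in Huh7-IR without either Huh7 parental library (0.70 and 0.78) or Huh7-IR replicate 1 (0.45), nor in Hep3B-CR without any 1 of the 4 libraries (0.75 to 0.80). EFNA1, EFNA3, EPHA1, EPHA2, PLXNB2, SEMA4B, SEMA4C, SEMA6C and SEMA6D were not called against parental cells in any of the 4 comparisons.

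IR and CR cells of the same line differed in few members. In Huh7, 3 of 46 members (6.52%) were called beside 13.7% of all genes (8.23% higher and 5.43% lower in IR). PLXND1 (1.18 ± 0.37, limma adjusted p = 0.0497) and PLXNB1 (1.18 ± 0.33, adjusted p = 0.0333) were higher in IR and PLXNC1 (-2.13 ± 0.48, adjusted p = 0.0137) lower. None of the 3 was called in a limma fit of Huh7 libraries alone. PLXND1 lost its call without any 1 of the 4 libraries (0.97 to 1.40), PLXNB1 without Huh7-IR replicate 2 (0.63) or Huh7-CR replicate 1 (0.73), and PLXNC1 without Huh7-IR replicate 1 (-1.61) or Huh7-CR replicate 2 (-1.37). The count was 1 without either Huh7-CR library, beside 5.85% and 3.19% of all genes, and 5 without Huh7-IR replicate 2, beside 19.2%. In Hep3B, 6 members (13.0%) were called beside 11.7% of all genes (5.33% higher and 6.41% lower in IR). SEMA5A (-2.46 ± 0.30, adjusted p = 0.000309) and EPHB2 (-2.34 ± 0.18, adjusted p = 6.82e-06) were lower in IR than in CR, and EPHA7 (1.41 ± 0.34, adjusted p = 0.0181) and EFNB2 (0.69 ± 0.16, adjusted p = 0.0149) higher, with the remaining calls, SEMA3A and EPHA6, at -0.74 and -0.68. SEMA3A was not called without either Hep3B-CR library or Hep3B-IR replicate 1 (-0.77 to -0.60), and EPHA6 not without Hep3B-CR replicate 2 or either Hep3B-IR library (-0.72 to -0.60). Without Hep3B-IR replicate 2 EPHA7 was at 0.88 and EFNB2 at 0.50, neither called, and 3 members were called beside 4.43% of all genes. Without Hep3B-CR replicate 2 they were at 1.58 and 0.62, neither called, and 2 members were called beside 5.25% of all genes, and without Hep3B-CR replicate 1 EPHA7 was at 1.24 and not called.

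The parental lines differed in 25 members (54.3%), 9 higher in parental Huh7 and 16 higher in parental Hep3B, beside 42.6% of all genes. DPYSL3, a relative of DPYSL2, had 225 and 117 CPM in parental Huh7 and 3.34 and 1.20 CPM in parental Hep3B (5.72 ± 0.46, limma adjusted p = 8.67e-07), and EPHA5 had 30.5 and 41.2 against 2.96 and 4.35 CPM (2.99 ± 0.30, adjusted p = 5.28e-06). SEMA5A had 0.684 and 0.362 CPM in Huh7 against 21.3 and 27.8 CPM in Hep3B (-4.07 ± 0.30, adjusted p = 3.81e-07), and EPHA1 0.582 and 0.630 against 23.7 and 16.4 CPM (-3.69 ± 0.39, adjusted p = 9.13e-06). EFNB1 had no read in parental Huh7 and 2.02 and 2.29 CPM in parental Hep3B. All 7 tested secreted semaphorins except SEMA3D and SEMA3E had lower values in Huh7, 4 of them with a call.

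Some members also differed between DMSO and parental cells. In Huh7, 8 members (17.4%) were called against parental cells, 5 higher and 3 lower, beside 4.83% of all genes (3.46% higher and 1.37% lower). In Hep3B it was 4 members (8.70%), 1 higher and 3 lower, beside 1.58%. The Huh7 count was 2 without parental replicate 1, beside 0.992% of all genes, 4 without parental replicate 2, beside 1.36%, 3 without DMSO replicate 2, beside 0.985%, and 18 without DMSO replicate 1, beside 23.7%. In Hep3B it was 1 without DMSO replicate 2 or parental replicate 1, beside 0.306% of all genes each, and 2 without either of the other two libraries, beside 0.573% and 0.812%. EPHA3 rose in Huh7 from 5.27 and 11.0 CPM to 48.9 and 61.3 CPM (2.69 ± 0.41, limma adjusted p = 0.00507), and had 6.48 and 12.6 CPM in Huh7-IR and 8.04 and 8.13 CPM in Huh7-CR. Without Huh7 parental replicate 1 EPHA3 was at 2.22 (adjusted p = 0.0584). SEMA5A moved in opposite directions, from 0.684 and 0.362 to 5.46 and 11.2 CPM in Huh7 (2.55 ± 0.30, adjusted p = 0.00107) and from 21.3 and 27.8 to 2.65 and 4.87 CPM in Hep3B (-2.45 ± 0.30, adjusted p = 0.00209), and the difference between the lines was not tested.

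EFNB2 was lower in the DMSO cells of both lines, at 5.61 and 4.94 CPM against 17.3 and 17.2 CPM in Huh7 (-1.54 ± 0.16, limma adjusted p = 0.000536) and 20.5 and 22.5 CPM against 43.2 and 39.5 CPM in Hep3B (-0.91 ± 0.16, adjusted p = 0.0159), the latter lost without any 1 of the 4 libraries (-0.98 to -0.85). DPYSL3 in Huh7 was 33.7 and 13.2 CPM in DMSO cells (-2.88 ± 0.46, adjusted p = 0.00636). This was not called without DMSO replicate 2 (-2.23, adjusted p = 0.0626) or parental replicate 1 (-2.41, adjusted p = 0.0706). DPYSL3 had 505 and 604 CPM in Huh7-CR, above parental cells by 1.76 ± 0.46 (adjusted p = 0.00943). That rise was not called without Huh7 parental replicate 2 (1.29, adjusted p = 0.102) or Huh7-CR replicate 2 (1.63, adjusted p = 0.0584). In Hep3B DMSO cells PLXNA2 (1.56 ± 0.25, adjusted p = 0.0107) was not called without DMSO replicate 2 (1.42) or parental replicate 1 (1.43), and EPHA7 (-1.52 ± 0.34, adjusted p = 0.0471) not without any 1 of the 4 libraries (-1.73 to -1.30).

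**Figure D5:**
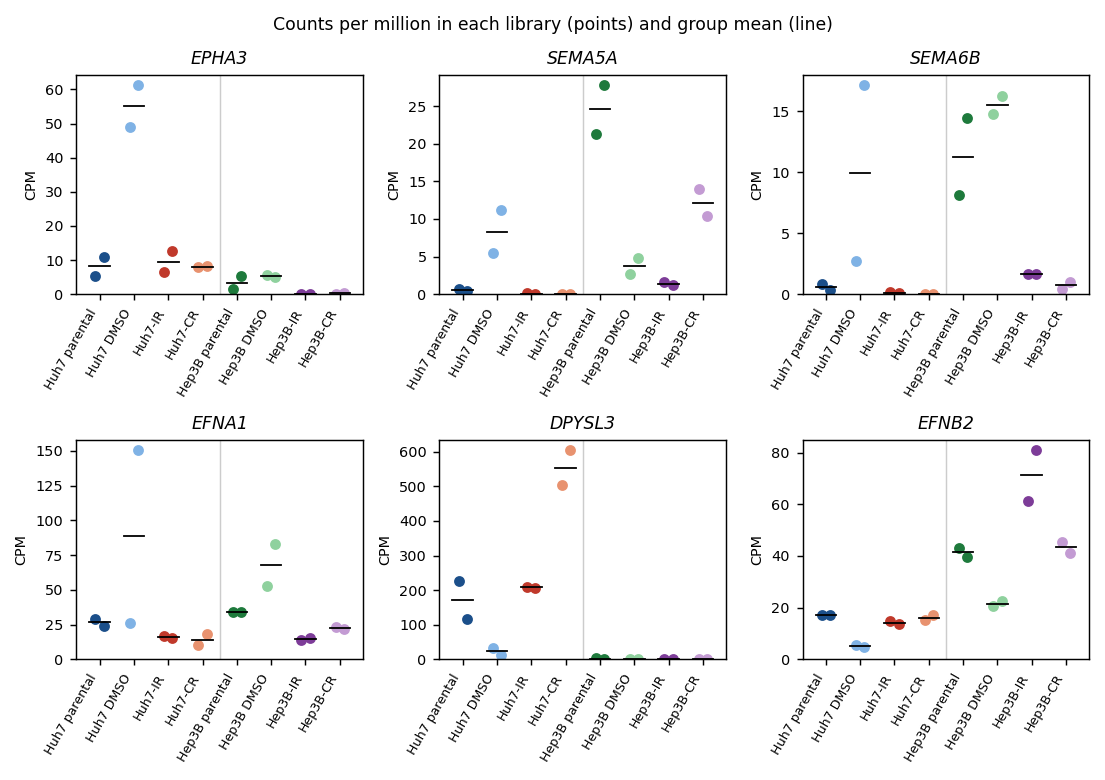
CPM of EPHA3, SEMA5A, SEMA6B, EFNA1, DPYSL3 and EFNB2 by group, on linear axes from 0; each point is 1 library and the line is the mean of the 2. The Huh7 DMSO libraries lie above parental Huh7 for EPHA3 and SEMA5A and below it for DPYSL3 and EFNB2, and for EFNA1 and SEMA6B replicate 2 (151 and 17.1 CPM) stands far from replicate 1 (26.5 and 2.73 CPM).

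The 2 Huh7 DMSO libraries differed from each other, with 9 members more than 2-fold higher and 2 more than 2-fold lower in replicate 2 on the CPM + 1 scale, beside 6.73% and 0.959% of all tested genes. The Huh7-IR libraries differed likewise, with 7 members higher and 1 lower, beside 3.87% and 3.52%, while the other groups had at most 2 such members. EFNA1 had 26.5 CPM in replicate 1 and 151 CPM in replicate 2, EFNA3 0.855 and 9.44 CPM, SEMA6A 13.1 and 57.5 CPM and EPHA1 2.37 and 9.55 CPM. In Hep3B DMSO cells EFNA1 was at 52.8 and 83.1 CPM, above parental cells at 34.4 and 34.2 CPM. All 10 genes of a hypoxia response list (CA9, NDRG1, ANKRD37, EGLN3, ADM, BNIP3, PDK1, VEGFA, PFKFB4 and KDM3A) were also higher in replicate 2 of both DMSO groups, with sums of 306 and 1033 CPM in Huh7 and 229 and 524 CPM in Hep3B, against 219 to 327 CPM in parental and 381 to 621 CPM in resistant libraries. The part of this in the ephrin values was not tested. The called rises of EPHA1 (1.89), SEMA6B (2.38) and PLXND1 (1.87) in Huh7 DMSO cells were lost without replicate 2 (1.07, 1.24 and 1.10) and without either parental library. The fall of EFNA5 (-1.11) was lost without parental replicate 1 or 2 or DMSO replicate 2 (-1.15 to -1.09). Reads of the readthrough gene EFNA4-EFNA3 may be shared with EFNA3 and EFNA4.

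The bases before the start of 4 genes picked by hand are shown to make the letters of a hypoxia-inducible factor (HIF) site core visible. PLXNA2 and PLXNB3 were called higher than parental cells in all 4 comparisons (in Hep3B the PLXNA2 rise did not hold against DMSO). EFNA1 and EFNA3 were highest in Huh7 DMSO replicate 2. Other members were also highest there and are not shown, among them EFNA4 (18.4 CPM), SEMA4G (103 CPM) and PLXNB2 (424 CPM). The bases come from RefSeq (GRCh38.p14), in which 49 of the 55 members had a window and DPYSL2, EFNB3, EPHA10, SEMA3A, SEMA6A and SEMA6B did not. They are read 5′ to 3′ on the gene's strand, end 1 base before the GENCODE gene start, and were each found once in GRCh37. Capitals mark ACGTG or GCGTG on either strand.
PLXNA2, chr1:208417730-208417979, minus strand, GRCh37: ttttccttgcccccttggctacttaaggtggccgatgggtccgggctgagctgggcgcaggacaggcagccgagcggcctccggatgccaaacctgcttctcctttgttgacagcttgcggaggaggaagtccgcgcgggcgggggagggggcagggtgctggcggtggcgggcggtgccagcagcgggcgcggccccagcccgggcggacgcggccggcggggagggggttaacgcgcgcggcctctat
PLXNB3, chrX:153029454-153029650, plus strand, GRCh37: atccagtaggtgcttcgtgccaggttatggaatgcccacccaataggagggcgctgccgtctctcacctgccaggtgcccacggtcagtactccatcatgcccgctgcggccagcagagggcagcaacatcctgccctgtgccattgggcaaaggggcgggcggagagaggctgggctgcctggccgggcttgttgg
EFNA1, chr1:155100102-155100351, plus strand, GRCh37: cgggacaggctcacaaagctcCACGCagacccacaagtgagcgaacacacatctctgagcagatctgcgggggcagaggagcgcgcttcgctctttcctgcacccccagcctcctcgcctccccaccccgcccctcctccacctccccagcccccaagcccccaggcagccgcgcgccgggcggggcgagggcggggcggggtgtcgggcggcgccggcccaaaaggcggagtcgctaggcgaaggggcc
EFNA3, chr1:155051063-155051312, plus strand, GRCh37: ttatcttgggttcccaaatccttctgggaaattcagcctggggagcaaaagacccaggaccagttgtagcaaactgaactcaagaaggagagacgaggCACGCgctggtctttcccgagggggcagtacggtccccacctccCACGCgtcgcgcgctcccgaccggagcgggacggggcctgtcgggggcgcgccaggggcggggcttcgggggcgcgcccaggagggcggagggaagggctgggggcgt
EFNA1 had 1 match and EFNA3 had 2, and PLXNA2 and PLXNB3 had none, PLXNB3 in a shorter stretch of 197 bases. A difference between these genes was not tested. Over the 250 bases before each start, 43.2% of all 35116 windows and 47.4% of the 78 windows of members held such a match, and a match describes letters only. The site of the AP-1 factor (TGACTCA or TGAGTCA) was in 4.20% of all windows and in none of the 78.

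Other axon guidance genes, netrins, slits, repulsive guidance molecules, co-receptors and effectors, were looked at as a list of 60 genes, of which 42 were tested. Against parental cells 18 were higher and 5 lower in Huh7-IR, beside 31.1% higher and 17.8% lower of all genes. For Huh7-CR these counts were 14 and 3, beside 20.9% and 13.6%. They were 12 and 6 for Hep3B-IR, beside 15.7% and 11.4%, and 19 and 4 for Hep3B-CR, beside 20.0% and 12.3%. The genes NTN1 and NTN4, which encode secreted netrins, MICAL1, which oxidises actin downstream of plexins, and RND1 and RRAS, small GTPases that plexins bind or inactivate, were called higher in all 4. RND1 had 10.13 and 8.67 CPM in parental Huh7 and 10.08 and 42.05 CPM in Huh7-IR, so that only replicate 2 was higher there. The share of all genes called higher in all 4 was not counted, so this is not shown to be particular to the list. Calls of this list were not tested with a library left out. NTN4 had 70.0 and 57.2 CPM in parental Huh7, 167 and 278 CPM in Huh7-IR and 328 and 238 CPM in Huh7-CR. It had 24.5 and 12.2 CPM in parental Hep3B, 112 and 74.3 CPM in Hep3B-IR and 75.1 and 74.9 CPM in Hep3B-CR. MICAL1 rose in Huh7 by 2.67 ± 0.29 (limma adjusted p = 1.16e-05) with IR and 1.80 ± 0.29 with CR, and in Hep3B by 0.95 ± 0.29 and 1.496 ± 0.29.

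The labelled cell type was checked with marker lists. The 14 hepatocyte lineage genes summed to 12490 and 17700 CPM in parental Huh7, 144 and 618 CPM in Huh7-IR and 1503 and 3121 CPM in Huh7-CR. In Hep3B they summed to 20130 and 24850 CPM in parental cells, 3892 and 11140 CPM in Hep3B-IR and 2367 and 3609 CPM in Hep3B-CR. Of these genes 12 were called lower in Huh7-IR and 11 in Huh7-CR, beside 17.8% and 13.6% of all genes. The Hep3B counts were 7 with IR and 10 with CR cells, beside 11.4% and 12.3% of all genes. SERPINA1, a secreted protease inhibitor, was called higher in Hep3B-IR (1.74 ± 0.58, limma adjusted p = 0.0375). The part of the hepatocyte genes in the member changes was not tested. Of 8 neuron markers 4 were below 1 CPM in both libraries of every group, and the others, led by TUBB3 and MAP2, brought the sum to 203 and 127 CPM in parental and 161 to 357 CPM in resistant Huh7 and 184 and 104 CPM in parental and 216 to 296 CPM in resistant Hep3B. The 5 endothelial markers summed to at most 6.36 CPM and the 5 immune markers to between 6.69 and 73.3 CPM, with CD68 the highest of them in every group.

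Single immune and fibroblast markers moved with resistance. CD68, a lysosomal protein abundant in macrophages, was called higher in all 4 comparisons, by 3.62 and 3.32 in Huh7-IR and Huh7-CR and by 2.19 and 1.78 in the Hep3B groups. PTPRC, the leukocyte antigen CD45, was at -0.93 and -0.69 in resistant Huh7, both called, and CD14 was called lower in Huh7-IR (-1.21). The 8 fibroblast markers summed to 315 to 790 CPM in Huh7 and 54.4 to 103 CPM in Hep3B, and 6 of them were tested. In both resistant Huh7 groups 4 were called higher, the fibrillar collagen genes COL1A1 (5.04 and 4.21), COL1A2 (5.20 and 5.93) and COL3A1 (2.97 and 4.91) and the receptor gene PDGFRB (0.98 and 1.23). LUM (-2.90 and -0.87) and PDGFRA (-5.46 and -3.11) were called lower there. In Hep3B COL1A1 was called higher in both groups (4.69 and 5.70), PDGFRB lower in IR (-1.35) and PDGFRA lower in CR cells (-2.33). The part of these markers in the member changes was not tested.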

How the data were processed

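RNA of the 16 libraries had been read as short reads. According to the study's methods, the authors aligned reads with STAR to hg19, kept unique hits, counted them per RefSeq gene with QuasR and used edgeR to find differentially expressed genes. The deposited values are CPM. The labels name a stranded mRNA kit and the methods total RNA, so the kit is uncertain, and the methods state biological triplicates where 2 libraries per group were used here. Of 26258 gene IDs, 26111 were matched to symbols. The low CPM steps gave whole reads (within 0.05 of a read), which served for depth and for count tests as alternatives. The 15019 genes that reached 1 CPM in 2 or more libraries entered 1 limma fit (3.58.1, R 4.3.3) of log2(CPM + 1) over the 8 groups, with trend, without a replicate block, and Benjamini-Hochberg adjustment over all of them. Alternatives used edgeR (4.0.16) and DESeq2 (1.42.0) on recovered reads, TMM and quantile scaling, other pseudocounts, no filter, DMSO cells as reference, libraries of 1 line only, unadjusted p, a replicate block and each library left out, in which a lone library was assumed to vary like the other groups. The scripts were tested on simulated data. Named members were those called in a comparison, with the members not called listed by symbol. The members and lists were chosen with earlier results of these data known. Coordinates are GRCh37, from GENCODE. Counting intervals cover counting error only.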

Additional observations from a re-analysis of the deposited data

Results flagged for a closer look

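The mean change of the IR and CR cells over parental cells differed between Huh7 and Hep3B, by limma's test of the difference itself, for 25 members. The difference, Huh7 minus Hep3B on the log2(CPM + 1) scale, was 3.37 for PLXND1, 2.87 for SEMA3B, 2.27 for PLXNA1, 1.91 for EPHB6, 1.91 for SEMA6B, 1.86 for EPHA3, 1.78 for SEMA3D, 1.66 for SEMA5A, 1.61 for DPYSL3, 1.56 for PLXNA3 and 1.51 for PLXNA2. It was 1.43 for SEMA3F, 1.42 for SEMA3C, 1.31 for SEMA3A, 1.19 for EPHA5 and 0.70 for SEMA4F. It was negative for EFNB2 (-0.59), SEMA4D (-0.87), DPYSL5 (-1.01), EFNA2 (-1.16), EPHB2 (-1.37), SEMA6A (-1.92), PLXNC1 (-2.23), SEMA3E (-2.37) and SEMA7A (-2.95). The sign of SEMA5A and SEMA6B turned on recovered reads and that of SEMA5A, EPHA3 and EFNB2 against DMSO, so no order of the lines can be read for them. The call of EPHB6 was lost in 17, of SEMA6B in 15, of DPYSL3 in 13 and of SEMA6A and SEMA3F in 11 of 22 alternatives. For EFNA2 and EFNB2 it was lost in 10, for SEMA4F in 9 and for EPHA5 and PLXNA3 in 8. Against DMSO 16 of the 25 differences kept their call and direction. SEMA3D was then at 0.13 (limma adjusted p = 0.867) and EPHA5 at 0.07 (adjusted p = 0.903). A negative value can stand for a fall in Huh7, as in SEMA3E, or for a rise in Hep3B, as in EPHB2.

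SEMA5A was higher in DMSO than in parental cells in Huh7 (2.55) and lower in Hep3B (-2.45), with all libraries of a line on the same side. The difference between these values was not tested.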

How the results depend on the processing

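Of 148 calls of a member in a comparison, 62 were kept under all alternatives tried for them, and 385 of the 2324 values computed under an alternative lost a call. In 190 values a call was gained, among them EFNA1, EPHA1, SEMA5A and SEMA6B in resistant Huh7 cells against DMSO. With Huh7 or Hep3B libraries fitted alone, 11 members were called between Hep3B-IR and Hep3B-CR, 1 between Huh7 DMSO and parental cells and 0 between Huh7-IR and Huh7-CR, by limma. Beside them stood 16.4%, 0.193% and 1.29% of all genes. Without adjustment of p the counts were 12, 17 and 11, beside 17.8%, 14.5% and 21% of all genes. Without the filter, 5 members were called in Huh7 DMSO cells and 1 between Huh7-IR and Huh7-CR, beside 1.64% and 6.61% of all genes. With DESeq2 the counts were 13 and 6, beside 12.2% and 16.4% of all genes. Between Huh7-IR and Huh7-CR the count was 6 with a pseudocount of 4 CPM, beside 10.8%, and 5 with quantile scaling, beside 13.6%.

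With 1 library left out, the number of members called was 1 to 2 in Hep3B DMSO cells, 13 to 14 in Hep3B-CR, 7 to 14 in Hep3B-IR, 2 to 4 between Hep3B-IR and Hep3B-CR, 2 to 18 in Huh7 DMSO cells, 1 to 5 between Huh7-IR and Huh7-CR and 14 to 25 for the difference between the lines. The Huh7-CR count was below that of the main fit whichever library of the comparison was left out. EPHA2 in Huh7-IR was -0.80 without Huh7-IR replicate 2 and 0.64 without Huh7-IR replicate 1.

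With DMSO cells as reference the sign turned for EFNB2 (1.45 in Huh7-CR, 1.28 in Huh7-IR, 0.0401 between the lines), EPHA3 (-2.62 in Huh7-CR, -2.47 in Huh7-IR, -0.12 between the lines), EPHA5 in Huh7-CR (-1.001), EPHA7 in Hep3B-IR (0.47), PLXNA2 (-0.19 in Hep3B-CR, -0.81 in Hep3B-IR) and SEMA5A (1.49 in Hep3B-CR, -3.35 between the lines). On recovered reads the difference between the lines turned for PLXNB3 (5.32 with DESeq2, 4.99 with edgeR), SEMA5A (-1.08 and -1.03) and SEMA6B (-0.51 and -0.42), all low genes in Huh7. The cause was not tested.

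With the replicate block, 21 members each were called in Huh7-IR, Huh7-CR and Hep3B-CR, beside 48.9%, 34.6% and 32.4% of all genes. The count, with the share of all genes in brackets, was 13 in Hep3B-IR (27.3%), 9 in Huh7 DMSO cells (5.63%) and 3 in Hep3B DMSO cells (1.96%). It was 4 between Huh7-IR and Huh7-CR (13.8%) and 7 between Hep3B-IR and Hep3B-CR (12.2%). For parental lines (42.6%) and for the difference between the lines (29.8%) it was 25 each. Of the 3 calls between Huh7-IR and Huh7-CR 2 were kept, of the 14 in Hep3B-IR 13 and of the 4 in Hep3B DMSO cells 3. Deviations of same-numbered libraries correlated from -0.22 to 0.44 over all pairs of groups, with 0.44 between Huh7-IR and Huh7-CR, 0.41 between the DMSO groups and 0.21 to 0.26 among parental, IR and CR cells of Hep3B. The labels tie no number to a shared culture or day, so the libraries were not taken as paired. With 2 libraries a group, members near 1 CPM are limited by few reads.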
